A study of Mus musculus with 4 samples.

Results

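The 9 genes described here encode proteins that make, carry and break down retinoic acid. They are Aldh1a1, Aldh1a2, Aldh1a3, Crabp1, Crabp2, Rbp4, Stra6, Cyp26b1 and Dhrs3. They were taken by symbol from the 27293 genes of a count table of 4 RNA-seq libraries, and all 9 were found. The libraries were made from telencephalic tissue of C57BL/6 mouse embryos at embryonic day 13 (E13), from 2 µg of total RNA each, to ask how gene expression differs when STING is deleted from the developing brain. The 2 control libraries are labelled wild type (WT), with no further allele named. The 2 others carry the genotype STINGf/f;Nestin-Cre and are called cKO here: both STING alleles are floxed, and Cre is driven by Nestin, which acts in neural progenitors and the cells they give rise to, and not in all cells of the tissue. The labels do not say whether a library holds 1 embryo or several, so p-values measure only the spread between these samples.

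Retinoic acid is made from retinol (vitamin A). RBP4 carries retinol in blood and STRA6 takes it into cells, where it is oxidised to retinal and then, by the ALDH1A enzymes, irreversibly to retinoic acid. CRABP proteins bind retinoic acid in the cytoplasm, nuclear receptors of the RAR and RXR families respond to it, and CYP26 enzymes degrade it, so that sources and sinks set where the signal is present. In the embryonic forebrain the meninges are a known source through Aldh1a2, and the lateral ganglionic eminence is a known site of Aldh1a3.

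The depth, as counts on genes, was 17209654 in WT 1 and 18533391 in WT 2, against 18237989 in cKO 1 and 18091688 in cKO 2. A count of 0 therefore allows up to 3 counts, or 0.162 to 0.174 CPM (counts scaled to a common library size), for counting error only. The STING gene, listed as Tmem173, had 20 counts in WT 1 and 19 in WT 2, against 18 in cKO 1 and 22 in cKO 2, with a log2 fold change, cKO minus WT, of 0.02 (standard error 0.45). The targeted gene thus did not separate the groups at this depth, and a gene-level count adds exons inside and outside the floxed part, so the genotypes are those of the labels. Counts of 4 genes on chromosome Y (Uty, Kdm5d, Ddx3y and Eif2s3y) summed to 2735 in WT 1 and 0 in WT 2, against 3002 in cKO 1 and 1848 in cKO 2. WT 2 was thus the library without Y-linked reads, and its title carries another abbreviation (nes) than that of WT 1, which is not explained in the sources used here, so whether this control carries the Cre driver is not settled. All 7 markers of the telencephalon were tested and 0 were called between the groups. They summed to 2021 CPM in WT 1 and 2204 in WT 2, against 2384 in cKO 1 and 1809 in cKO 2, with Neurod6 the most abundant and none at 0.

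Each gene was compared between the cKO and WT libraries with edgeR's quasi-likelihood test and called at the study's thresholds, a difference of 2-fold or more with an unadjusted p no higher than 0.05. Of the 9 retinoic acid genes, 7 passed the filter on low counts and 0 of these 7 were called, also with DESeq2, against 131 of 16145 genes tested (0.811%; 0.669% of genes were called lower). None of the 7 had an unadjusted p under 0.05, against 199 of all genes, and no gene of the 16145 had an adjusted p under 0.05 after Benjamini-Hochberg adjustment, with a smallest adjusted p = 0.9999 in edgeR's fit. The fitted difference was negative in 6 of the 7 genes and positive in 1, beside 8406 negative and 7739 positive among all genes tested. The median log2 fold change of the 7 was -0.34, beside -0.01 for all genes tested. Leaving out WT 1 brought the median of the 7 to 0.00149, beside 0.00116 for all genes. In this comparison of both cKO libraries with WT 2 alone, 0.619% of all genes were called and again 0 of the 7. WT 1 had the highest level for 4 of the 7 genes and for 4059 of all genes tested. The cKO libraries both lay under the lower WT library for 1 of the 7 genes (Aldh1a3) and above the higher one for 0, beside 10.8% of all genes below and 11% above. A single gene of 7 is close to that background and is no result about the retinoic acid genes.

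**Figure D1:**
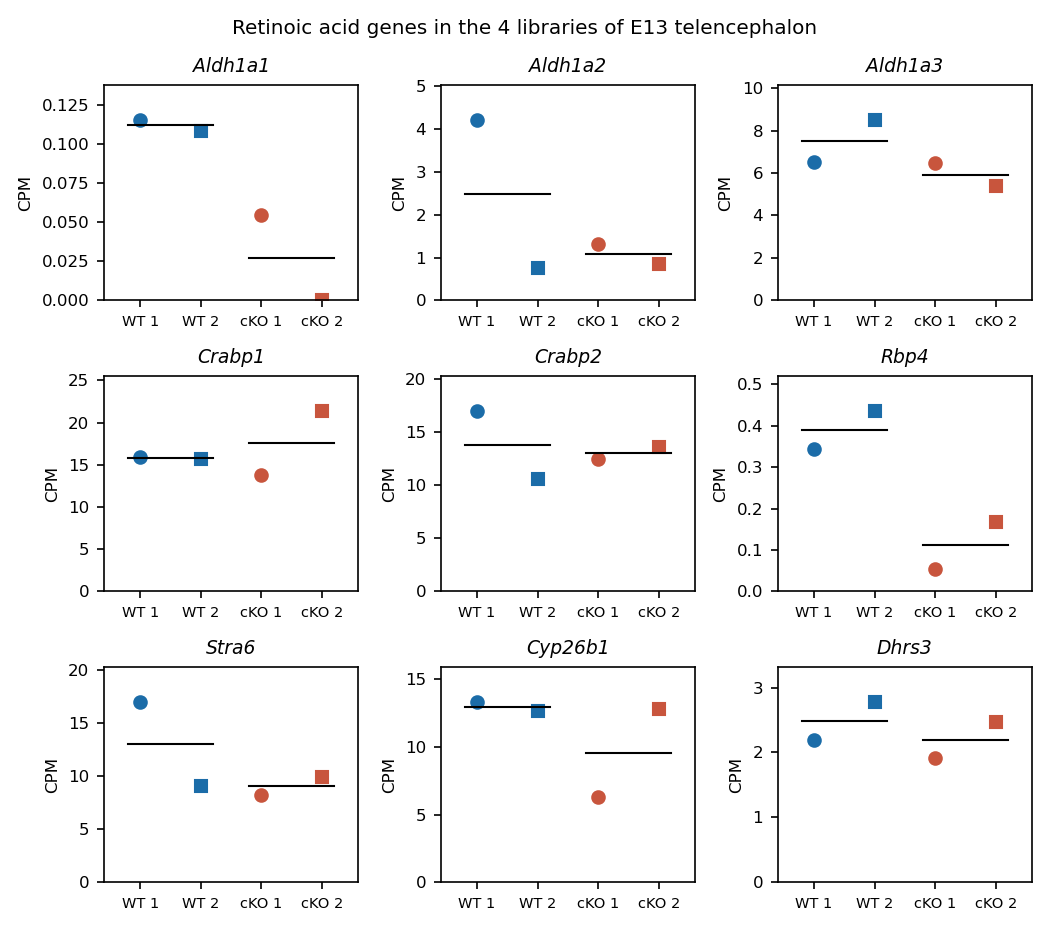
Level of each of the 9 genes in each library, in CPM scaled by edgeR's TMM method, with WT libraries in blue, cKO libraries in red, circles for replicate 1, squares for replicate 2 and a black line at each group's mean (n = 2). Aldh1a2 and Stra6 are highest in WT 1, at 4.20 and 17.0 CPM, and Cyp26b1 is lowest in cKO 1, at 6.29 CPM.

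The genes covered a wide range of levels, which were compared as CPM per kilobase of exon, averaged over the 4 libraries (± SD, n = 4). Crabp1 was the highest, at 20.8 ± 4.05, and Crabp2 followed at 10.1 ± 2.02. Cyp26b1 (2.10 ± 0.622), Stra6 (1.90 ± 0.688) and Aldh1a3 (1.45 ± 0.280) came next, and their ranges of mean ± SD overlapped. Cyp26b1 was above Aldh1a3 in every library but cKO 1, where it was at 1.17 against 1.40. Dhrs3 (0.797 ± 0.126) and Aldh1a2 (0.785 ± 0.721) lay within their spread of each other. Rbp4 was at 0.187 ± 0.128 and Aldh1a1 at 0.0141 ± 0.0109. So the binding proteins were the most abundant, the synthesising and degrading enzymes lay well below them, and the blood carrier of retinol was close to absent. With the length of the longest transcript in place of all exons, Stra6 was at 3.59 and Cyp26b1 at 2.50, so the order of these 2 depends on the length used.

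Retinol enters through RBP4 and STRA6. Rbp4 (ENSMUSG00000024990, minus strand, chr19:38116620-38125321, GRCm38), the blood carrier of retinol that is made mainly by liver, had 6 counts in WT 1 and 8 in WT 2, against 1 in cKO 1 and 3 in cKO 2. The WT libraries were higher and the groups did not overlap, a pattern that 10.8% of all genes tested also showed. The gene did not pass the filter on low counts, and with no filter it was not called. The ratio of cKO to WT reads, scaled to depth, was 0.283 and its exact 95% interval (Clopper-Pearson), for counting error alone, ran from 0.0678 to 0.901. Stra6 (ENSMUSG00000032327, plus strand, chr9:58063788-58153996), the membrane receptor that takes up retinol from RBP4, had 295 counts in WT 1 and 167 in WT 2, against 150 in cKO 1 and 178 in cKO 2. In CPM these are 17.0 in WT 1 and 9.07 in WT 2, against 8.20 in cKO 1 and 9.96 in cKO 2. WT 1 stood above the other 3 libraries, while WT 2 lay between the 2 cKO libraries, so the groups overlapped. The log2 fold change was -0.52 (standard error 0.32, 95% interval -1.27 to 0.23) with all libraries. It was 0.00149 without WT 1 and -0.89 without WT 2. The distance between the WT libraries, 1.87-fold, was larger than that between the group means, 13.02 CPM in WT and 9.08 in cKO.

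Retinal is held back from oxidation by DHRS3, which reduces it to retinol. Dhrs3 (ENSMUSG00000066026, plus strand, chr4:144892827-144928209) had 38 counts in WT 1 and 51 in WT 2, against 35 in cKO 1 and 44 in cKO 2. The libraries of both groups interleaved, with WT 1 below cKO 2. The fitted log2 fold change was -0.18 (standard error 0.38, 95% interval -1.05 to 0.69), between -0.36 without cKO 2 and 0.00769 without WT 2.

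The 3 ALDH1A enzymes carry out the last step of synthesis, and they differed in level and in how they varied. Aldh1a1 (ENSMUSG00000053279, plus strand, chr19:20492715-20643462), known from dopaminergic neurons and the dorsal retina, had 2 counts in WT 1 and 2 in WT 2, against 1 in cKO 1 and 0 in cKO 2. All libraries were at or under 3 counts, so no difference was detectable at this depth. Aldh1a3 (ENSMUSG00000015134, minus strand, chr7:66390890-66427517) had 113 counts in WT 1 and 156 in WT 2, against 118 in cKO 1 and 96 in cKO 2. In CPM these are 6.499 in WT 1 and 8.47 in WT 2, against 6.449 in cKO 1 and 5.37 in cKO 2. The cKO libraries both lay under the lower WT library, although WT 1 and cKO 1 were nearly equal. The group levels were 7.49 ± 1.40 CPM in WT and 5.91 ± 0.761 in cKO (SD, n = 2 each). The log2 fold change of -0.34 had a standard error of 0.28 and a 95% interval from -0.998 to 0.32, and was negative with each library left out, from -0.52 without WT 1 to -0.13 without WT 2.

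Aldh1a2 (ENSMUSG00000013584, plus strand, chr9:71215789-71296243) had the largest ratio of highest to lowest library, in CPM, of the 7 tested genes. It had 73 counts in WT 1 and 14 in WT 2, against 24 in cKO 1 and 15 in cKO 2, or 4.20, 0.760, 1.31 and 0.839 CPM in the same order. WT 1 alone was high, and WT 2 was the lowest of all 4 libraries, so the groups overlapped. The level in WT 1 was 5.52 times that in WT 2, a ratio that 72 of the 16145 genes tested (0.446%) reached. That count leaves out genes without a count in WT 2, such as the Y-linked genes. Group levels were 2.48 ± 2.43 CPM in WT and 1.08 ± 0.334 in cKO (SD, n = 2 each). The fitted log2 difference was -1.19 with a standard error of 0.73 and a 95% interval from -2.89 to 0.50, and its unadjusted p of 0.143 in edgeR's fit did not pass. Without WT 1 the sign turned to a log2 fold change of 0.50, and without WT 2 it was -1.95 and passed the study's thresholds, where 2.07% of all genes were called lower. With no filter on low counts it also passed, at -1.19, in a fit that called 333 of 27293 genes lower.

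Reads of Aldh1a3 outnumbered those of Aldh1a2 in every library, and the balance between them differed most between the 2 WT libraries. Per kilobase of exon the order turned in WT 1, at 1.85 CPM for Aldh1a2 and 1.41 for Aldh1a3. In the other libraries Aldh1a3 was also the higher per kilobase. Aldh1a2 gave 38.8% of the 188 reads on the 3 Aldh1a genes in WT 1 (exact 95% interval 31.8% to 46.2%). These intervals cover counting error only. In WT 2 it gave 8.14% of 172 reads (4.52% to 13.3%). In cKO 1 the share was 16.8% of 143 reads (11.1% to 23.9%), and in cKO 2 it was 13.5% of 111 reads (7.77% to 21.3%). The share in both cKO libraries lay between those of the WT libraries, and the spread between the WT libraries was wider than that between the cKO libraries.

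The library with high Aldh1a2 and Stra6 was also high in markers of tissue that borders the cortex. Of 16 markers of meninges and cranial mesenchyme, 13 were tested and 3 were called lower in cKO, Col1a1 and Col1a2 among them, beside 0.669% of all genes. WT 1 was highest in all 13, as it was in 4059 of the 16145 genes tested, and without WT 2, 10 of the 13 were called lower, beside 2.07% of all genes. The 16 genes summed to 530 CPM in WT 1 and 189 in WT 2, against 225 in cKO 1 and 173 in cKO 2. Zic1, which neural cells also express, was the most abundant, with 143, 77.1, 79.4 and 83.6 CPM in that order, and Alx1 was at 0 in cKO 1. Collagen gene Col1a1 had 1160 counts in WT 1 and 179 in WT 2, against 221 in cKO 1 and 106 in cKO 2, with WT 1 the highest library, as for Aldh1a2. The median log2 fold change of the 13 genes was -0.98 with all libraries and 0.09 without WT 1. Their part in the values of Aldh1a2 and Stra6 was not tested, and in bulk tissue fewer cells of a type and less RNA per cell cannot be told apart.

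**Figure D2:**
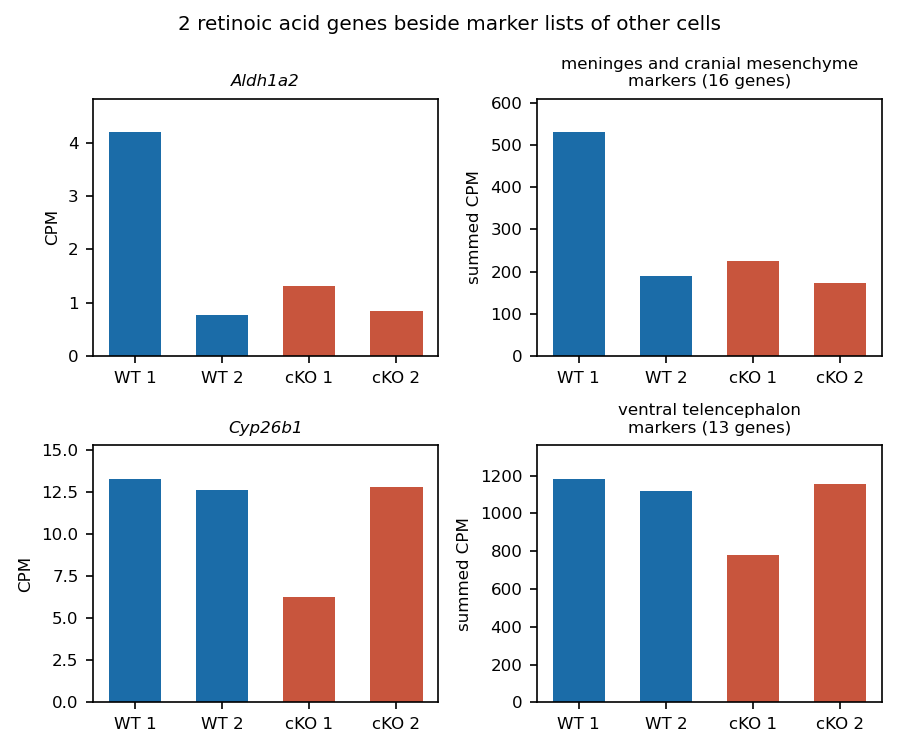
Level of Aldh1a2 and Cyp26b1 in CPM (left) and the summed CPM of 16 meningeal and mesenchymal and 13 ventral telencephalic marker genes (right) in each library, as bars from 0, with WT in blue and cKO in red. WT 1 has the highest bar for Aldh1a2 (4.20 CPM) and for the meningeal list (530 CPM), and cKO 1 has the lowest bar for Cyp26b1 (6.29 CPM) and for the ventral list (778 CPM).

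Markers of the dorsal midline were highest in the same library. Of 11 genes of choroid plexus epithelium, 9 were in the table, 4 were tested and all 4 were called lower in cKO (Otx2, Aqp1, Htr2c and Kcne2), beside 0.669% of all genes. Both cKO libraries lay below the WT libraries for 2 of the 4 (Htr2c and Aqp1), beside 10.8% of all genes. Htr2c had 101 counts in WT 1 and 18 in WT 2, against 4 in cKO 1 and 7 in cKO 2. It passed the filter on low counts through its WT libraries, so its call and its place below WT support nothing here. The median log2 fold change was -2.996 with all libraries. Without WT 1 the 4 genes went both ways, at -1.66 for Htr2c, -0.66 for Aqp1, -0.31 for Otx2 and 1.24 for Kcne2. Without WT 1 only Htr2c thus stayed more than 2-fold lower, while Aqp1 and Otx2 fell under that size and Kcne2 turned sign. With any other library left out, all 4 stayed negative. The 9 genes summed to 62.0 CPM in WT 1 and 10.5 in WT 2, against 7.32 in cKO 1 and 8.95 in cKO 2, Otx2 was the most abundant, and Folr1 was at 0 in WT 2 and Kcnj13 in cKO 2. The choroid plexus also makes transthyretin, the protein that holds RBP4 in blood and cerebrospinal fluid. Its gene Ttr was found in a second table of cKO 1 and WT 1 alone, with 5071 counts in WT 1 and 23 in cKO 1, and its counts in the other 2 libraries were not analysed here. The 8 markers of the cortical hem were all tested, 0 were called, and WT 1 was highest in all 8. They summed to 75.1 CPM in WT 1 and 18.7 in WT 2, against 29.8 in cKO 1 and 26.7 in cKO 2, with Rspo3 the most abundant and none at 0. Their median log2 fold change was -1.07 with all libraries and turned to 1.04 without WT 1. Without WT 1, 2 of the 8 passed the study's thresholds as higher in cKO (Wnt8b at 1.93 and Rspo2 at 1.52), beside 0.322% of all genes. Without WT 2, 7 of the 8 passed as lower, among them Wnt8b at -1.24 and Rspo2 at -2.33, beside 2.07% of all genes. The direction for the hem markers thus rested on which WT library was kept.

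By pattern over the 4 libraries, the genes most like Aldh1a2 were Tfpi, Islr and Gpc3, with Euclidean distances of 0.129, 0.140 and 0.173 between centred log2 values. Tfpi had 178 counts in WT 1 and 49 in WT 2, against 75 in cKO 1 and 52 in cKO 2. Stra6 was most like Arap1, Wnk4 and Thbd, and Arap1 had 250 counts in WT 1 and 143 in WT 2, against 129 in cKO 1 and 151 in cKO 2. Such genes were picked for the likeness of their pattern, which is a description and supports nothing about Aldh1a2 or Stra6.

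Retinoic acid that has been made is bound by CRABP1, which is linked to its turnover, and CRABP2, which hands it to nuclear receptors. Crabp1 (ENSMUSG00000032291, plus strand, chr9:54764748-54773110) had 276 counts in WT 1 and 288 in WT 2, against 252 in cKO 1 and 381 in cKO 2. The WT libraries were nearly equal and lay between the cKO libraries, of which cKO 2 was the highest of all. It was the 1 gene of the 7 with a positive log2 fold change, 0.15 (standard error 0.25, 95% interval -0.42 to 0.73), which ran from -0.18 without cKO 2 to 0.44 without cKO 1. Crabp2 (ENSMUSG00000004885, plus strand, chr3:87948666-87953376) had 295 counts in WT 1 and 195 in WT 2, against 229 in cKO 1 and 243 in cKO 2. Here both cKO libraries lay between the WT libraries. Its log2 fold change was -0.08 (standard error 0.27, 95% interval -0.70 to 0.54), and 0.30 without WT 1. The 95% intervals of both Crabp genes and of Aldh1a3 lay within a 2-fold difference in either direction. Those of Aldh1a2, Stra6, Cyp26b1 and Dhrs3 did not, so at this spread a 2-fold lower level was not set apart from no difference for these 4. The genes most like Crabp1 were Pisd, Myl6b and Pop7, and those most like Crabp2 were Ghdc, Gm27202 and Gm42808, at distances from 0.0338 to 0.0482.

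Cyp26b1 (ENSMUSG00000063415, minus strand, chr6:84571414-84593908), the enzyme that oxidises retinoic acid for removal, had 231 counts in WT 1 and 233 in WT 2, against 115 in cKO 1 and 229 in cKO 2. In CPM these are 13.3 in WT 1 and 12.7 in WT 2, against 6.29 in cKO 1 and 12.8 in cKO 2. Library cKO 1 alone was low, while cKO 2 lay between the WT libraries, so the groups overlapped. The cKO libraries differed 2.04-fold, a ratio of cKO 2 to cKO 1 that 399 of the genes tested (2.47%) reached. Any gene without a count in cKO 1 is left out of that count. Group levels were 12.97 ± 0.447 CPM in WT and 9.55 ± 4.62 in cKO (SD, n = 2 each). The log2 fold change was -0.44 (standard error 0.34, 95% interval -1.22 to 0.33), and it was -0.02 without cKO 1 and -1.03 without cKO 2, where it passed the study's thresholds, as 0.582% of all genes did in the lower direction. The other genes of the same family were near the floor, with 7 counts of Cyp26a1 in WT 1, 1 in cKO 2 and 0 in the other libraries, and a single count of Cyp26c1, in WT 1. Cyp26b1 thus gave nearly all reads of the family that degrades retinoic acid in this tissue.

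Markers of the ventral telencephalon had their lowest sum in the same library as Cyp26b1. Of 13 such genes all were tested and 0 were called. The log2 fold change was negative in 12, beside 8406 of all 16145 genes tested, and positive in 1, with a median of -0.17. The lowest library was cKO 1 for 10 of the 13 and cKO 2 for the other 3 (Gad1, Sp8 and Ebf1). They summed to 1182 CPM in WT 1 and 1117 in WT 2, against 778 in cKO 1 and 1156 in cKO 2. Dlx1 was the most abundant, with 387, 371, 245 and 380 CPM in that order, and none was at 0. Nkx2-1, which marks the medial ganglionic eminence and preoptic area, had 1407 counts in WT 1 and 1035 in WT 2, against 262 in cKO 1 and 1166 in cKO 2. In 4 of the 13 genes (Gad1, Gad2, Sp8 and Ebf1) both cKO libraries were below the WT libraries, beside 10.8% of all genes, which is not the pattern of Cyp26b1. Gad1, an enzyme of GABA synthesis, had 1388 counts in WT 1 and 1352 in WT 2, against 1052 in cKO 1 and 981 in cKO 2, with a log2 fold change of -0.45 and an unadjusted p of 0.0179 in edgeR's fit. The part of these markers in the values of Cyp26b1 was not tested. Among the genes most like Cyp26b1 were Tmem132e and Rasal1, at distances of 0.0749 and 0.0772, and Tmem132e had 154 counts in WT 1 and 166 in WT 2, against 78 in cKO 1 and 153 in cKO 2. Aldh1a3, also known from the ventral side, was most like Hsd17b7, Syt1 and Zfp354b, and Dhrs3 was most like Extl1, Elfn2 and Gal3st3.

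**Figure D3:**
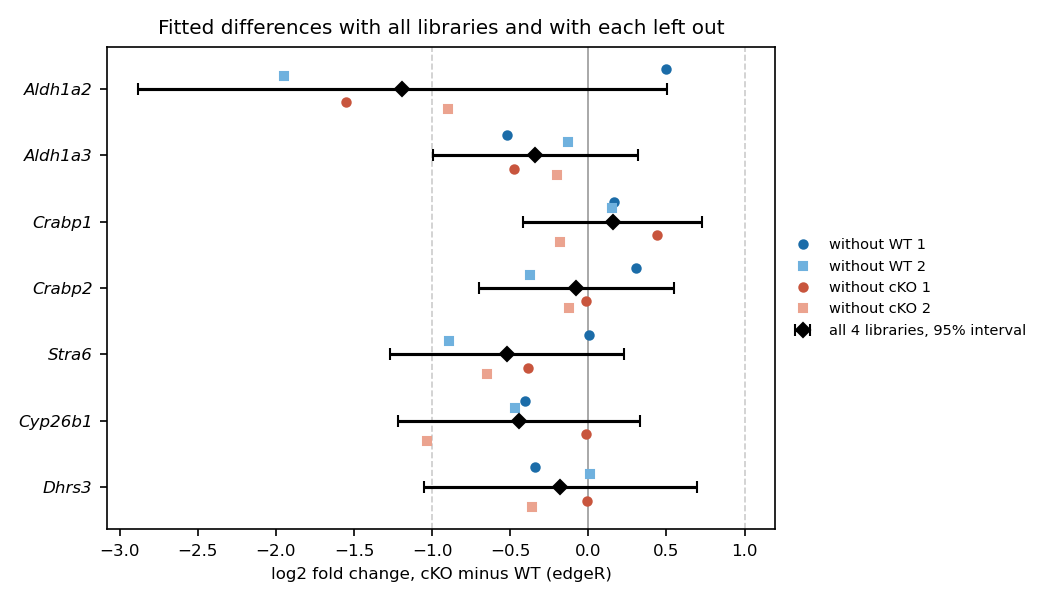
Log2 fold change of the 7 tested genes, cKO minus WT, with the 95% interval from all 4 libraries (black diamonds and bars) and the value with each library left out (coloured points, blue for WT and red for cKO). Dashed lines mark a 2-fold difference. Aldh1a2 spreads from -1.95 without WT 2 to 0.50 without WT 1, and Aldh1a3 stays between -0.52 and -0.13.

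The rest of the pathway was read from a list of 53 further genes, of which 45 were in the table and 33 were tested. None of the 33 was called and none had an unadjusted p under 0.05 in edgeR's quasi-likelihood test, and 0 were called with DESeq2. Their log2 fold changes were negative in 19 and positive in 14, with a median of -0.03, close to that of all genes. The cKO libraries both lay under the lower WT library for 2 of the 33 (Hic1 and Rxrg) and above the higher one for 1 (Dhrs4), beside 10.8% of all genes below and 11% above. Adh1, Adh4, Dhrs9, Hoxb1, Rbp2 and Rdh9 of this list were not analysed here.

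Among genes of retinol uptake and storage, 4 of 8 were tested. Rlbp1, a retinal-binding protein, had 1079 counts in WT 1 and 1434 in WT 2, against 1401 in cKO 1 and 1313 in cKO 2 (log2 fold change 0.10, standard error 0.17). Rbpr2, a second RBP4 receptor listed as Stra6l, had 131 counts in WT 1 and 165 in WT 2, against 123 in cKO 1 and 137 in cKO 2. Lrat, which esterifies retinol for storage, had 3 counts in WT 1 and 0 in the other libraries. The tissue thus held almost no reads of the main enzyme of retinol storage. Of 12 oxidoreductases found, 8 were tested, with a median log2 fold change of 0.05. Rdh10, which makes retinal from retinol in embryos, had 276 counts in WT 1 and 214 in WT 2, against 221 in cKO 1 and 177 in cKO 2 (log2 fold change -0.32, standard error 0.25). Dhrs4 had 591 counts in WT 1 and 664 in WT 2, against 750 in cKO 1 and 778 in cKO 2 (log2 fold change 0.27, standard error 0.17). Fabp5, which can carry retinoic acid to PPAR receptors, had 4345 counts in WT 1 and 4787 in WT 2, against 4718 in cKO 1 and 5744 in cKO 2, so the groups overlapped.

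All 6 receptor genes were tested, with log2 fold changes from -0.33 (Rarb) to 0.12 (Rxrb). Rara had 428 counts in WT 1 and 457 in WT 2, against 324 in cKO 1 and 500 in cKO 2. Rarg had 187, 185, 158 and 220 counts in that order, and Rarb, itself a known target of retinoic acid, had 34, 47, 38 and 27. In each of these 3 genes the groups overlapped. Per kilobase of exon the level of Rxrb, 27.2 ± 3.33 CPM, was the highest of the receptors, and that of Rarb, 0.384 ± 0.0813, the lowest (SD, n = 4). The 8 coregulators had log2 fold changes from -0.17 to 0.12.

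Of 14 further genes known to respond to retinoic acid, 12 were in the table and 9 were tested. The log2 fold change was negative in 8 of these, beside 8406 of all 16145 genes tested, and positive in 1, with a median of -0.17. Hic1, a transcriptional repressor, had 142 counts in WT 1 and 96 in WT 2, against 63 in cKO 1 and 83 in cKO 2. Both cKO libraries were below both WT libraries, as in 10.8% of all genes, and the log2 fold change, -0.72 (standard error 0.34), came to -0.37 without WT 1. Tgm2, a transglutaminase, had 95 counts in WT 1 and 20 in WT 2, against 30 in cKO 1 and 33 in cKO 2. As for Aldh1a2, WT 1 was the highest and WT 2 the lowest library, and the log2 fold change of -0.90 (standard error 0.67) was 0.68 without WT 1. Without WT 2 both Hic1 (-1.01) and Tgm2 (-1.64) passed the study's thresholds, in a fit that called 334 of all genes (2.07%) lower, against 108 with all libraries. The most abundant gene of the list, Meis2, had 7768 counts in WT 1 and 8829 in WT 2, against 8834 in cKO 1 and 7835 in cKO 2, with a log2 fold change of -0.01.

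Retinoic acid receptors bind direct repeats of a 6-base half-site. Promoter windows of 300 bases (250 before to 50 after the start, RefSeq, GRCm38.p6) were searched on both strands for a pair of half-sites, each spelled AGGTCA or AGTTCA or GGGTCA or GGTTCA, spaced by 1, 2 or 5 bases. Of 32851 windows, 73 (0.222%) held a repeat spaced by 1 base, 88 (0.268%) by 2 and 32 (0.0974%) by 5. Of the 9 genes, 7 had windows, 14 in all, with no match, and Aldh1a3 and Crabp2 were not matched to a window. Among the further pathway genes a repeat spaced by 5 bases was found for Rarb and Cyp26a1, and one spaced by 1 base for Bco1. The first 2 are shown because they carry the kind of element through which retinoic acid acts on its own pathway. The element of Rarb lies on the minus strand within chr14:16575488-16575554, from 53 to 37 bases before the start. That of Cyp26a1 lies within chr19:37697751-37697807, from 32 to 16 bases before the start, and reads as a direct repeat on the other strand. Capitals mark the repeat and its spacer, and each sequence runs 5′ to 3′ along the gene's strand.
Rarb: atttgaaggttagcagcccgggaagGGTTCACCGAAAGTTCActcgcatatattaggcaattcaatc
Cyp26a1: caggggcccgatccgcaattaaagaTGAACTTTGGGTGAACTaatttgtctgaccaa
A match is a stretch of letters and not a measured binding site, and in these libraries Rarb had 27 to 47 counts and Cyp26a1 0 to 7.

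Other cells that the dissection could hold were read from further marker lists. The 9 genes of endothelium and mural cells summed to 280 CPM in WT 1 and 203 in WT 2, against 189 in cKO 1 and 179 in cKO 2, with Rgs5 the most abundant, 0 called and none at 0. All 9 had a negative log2 fold change, beside 8406 of all 16145 genes tested. In 3 of the 9 (Cdh5, Flt1 and Kdr) both cKO libraries were below the WT libraries, beside 10.8% of all genes. Flt1, a VEGF receptor, had a log2 fold change of -0.64 (standard error 0.22) and an unadjusted p of 0.0217 in edgeR's fit. The 8 genes of microglia and macrophages summed to 49.2 CPM in WT 1 and 32.3 in WT 2, against 29.0 in cKO 1 and 35.1 in cKO 2, with Csf1r the most abundant, 0 called and none at 0. The 7 erythroid genes summed to 891 CPM in WT 1 and 408 in WT 2, against 337 in cKO 1 and 526 in cKO 2, with Hbb-y the most abundant, 0 called and none at 0. The sum for endothelium and mural cells was lower in both cKO libraries than in both WT libraries, and WT 1 had the highest sum in each of these 3 lists, as for Stra6, which endothelial cells at blood barriers can express, and their part in its values was not tested. Genes of diencephalon, midbrain and hindbrain, 9 of 13 in the table, summed to 23.8 CPM in WT 1 and 22.2 in WT 2, against 14.7 in cKO 1 and 21.8 in cKO 2. Barhl2 was the most abundant of these, 0 of 4 tested were called, and Foxa1, Foxa2 and Gata3 were at 0 in at least 1 library. The eye and olfactory placode list, tissues known for Aldh1a1 and Aldh1a3, gave 3.85 CPM in WT 1 and 2.01 in WT 2, against 2.51 in cKO 1 and 2.13 in cKO 2 over 7 of 8 genes. Mitf was its most abundant gene and the 1 tested, 0 were called, and Crx, Six6 and Cryaa were at 0 in at least 1 library.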

How the data were processed

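RNA-seq counts of 4 libraries were grouped by their labels. The authors deposited the number of reads per gene as raw counts, without normalization, in a table of 4 libraries and in a second table of cKO 1 and WT 1, and counts were identical for all 21342 genes in both. The submitters' processing notes name Bowtie2 2.2.3, TopHat2 2.0.12, HTSeq 0.6.0 and the build mm9, but of 27232 genes found in GENCODE M21 97.2% had a start or end within 1 base of GRCm38, so positions were read as GRCm38. Whether counting used strand is not given in the sources used here; no other annotated gene shares exon bases with the 9 genes. Blank rows (11 of 27304, 0.0403%) were left out. The tables' own columns of normalized values, fold changes and p-values were not used.

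Members and lists were chosen with earlier results of these data known. edgeR 4.0.16 in R 4.3.3 was used (TMM, filterByExpr, quasi-likelihood test, no covariate), with Benjamini-Hochberg adjustment over all 16145 genes tested, and tested on simulated counts. CPM values are TMM-scaled; levels per kilobase use the union of GENCODE M21 exons. Exact intervals came from scipy 1.17.1. Named genes were the 9 genes, the pathway and marker lists, Tmem173, the Y-linked genes and, for each tested member, the 3 genes at the smallest Euclidean distance between log2(CPM + 0.5) values centred on the gene's mean. Some genes of these lists are not reported here. Alternatives were RLE and upper-quartile scaling, other filters, DESeq2 1.42.0, a replicate block, a stricter p, each library left out and another exon length. With a library left out, the lone sample of its group is assumed to vary like the other group.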

Additional observations from a re-analysis of the deposited data

How the results depend on the processing

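Over 70 alternative values for the 7 tested retinoic acid genes, 62 kept their direction and their side of the study's thresholds, 5 turned direction and 3 newly passed. All 5 turns came from leaving out a library, and none from scaling, filter, tool or block. With each library left out in turn, log2 fold changes ran from -1.95 to 0.50 for Aldh1a2, from -0.18 to 0.44 for Crabp1, from -0.37 to 0.30 for Crabp2, from -0.89 to 0.00149 for Stra6 and from -0.36 to 0.00769 for Dhrs3. The count of retinoic acid genes called, 0, was 1 with no filter (Aldh1a2) and ran from 0 to 1 with a library left out (Aldh1a2 without WT 2, Cyp26b1 without cKO 2). For the further pathway genes the count of 0 ran from 0 to 2 (Hic1 and Tgm2 without WT 2). The count of all genes called, 131, was 405 with no filter, 72 where each library had to hold 10 counts or more, 65 with DESeq2 and 14 at an unadjusted p of at most 0.01, and ran from 100 without WT 1 to 517 without cKO 1. At a Benjamini-Hochberg adjusted p under 0.05 in edgeR's fit, the count of 0 was 65 with no filter and ran from 0 to 80, the latter without WT 2. Without WT 1 the calls at the study's thresholds were 48 lower and 52 higher, and without WT 2 334 lower and 49 higher, against 108 and 23 with all libraries. With the replicate number as a replicate block, 208 genes were called, 5 had an adjusted p under 0.05, and 0 retinoic acid and 0 further pathway genes were called. Same-numbered libraries share only a number: their deviations correlated at 0.108 over 16145 genes, which are not independent. The cause of these changes was not tested. A filter also changes the number of genes tested, and a left-out library the number of samples. Aldh1a1 and Rbp4, with 5 and 18 counts in total, did not pass the filter; with no filter both were tested and neither was called. The 2 WT libraries differed more for Aldh1a2 than the groups did.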
